A study of Homo sapiens with 6 samples.

Results

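The matrix metalloproteinases and their tissue inhibitors were followed as a set of 10 genes chosen by symbol, MMP1, MMP2, MMP8, MMP14, MMP15, MMP16, MMP17, TIMP1, TIMP2 and TIMP3, out of 60617 gene identifiers in the deposited counts. Earlier results of these data were known when the genes were chosen. RNA was sequenced from 6 xenograft tumors, all raised from WM983-B, a human melanoma line in long use, so every tumor derives from 1 line. Of these, 3 had been treated systemically with anle138b, a diphenyl-pyrazole compound that interferes with alpha-synuclein oligomers, and 3 had no treatment. The titles fall into a 4-library set, with 2 tumors of each group, and a 2-library set, with 1 of each (replicate 3 of both groups). Per-tumor values are listed in the order of replicates 1, 2 and 3. Dose, duration, the host animal and its age, and what the sets stand for were absent from the labels used here.

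Matrix metalloproteinases are zinc-dependent proteases that cut collagens, fibronectin and other proteins outside the cell or at its surface. They are made with a propeptide that covers the catalytic zinc, and TIMP proteins bind the active enzyme and block it. In melanoma the membrane-anchored enzyme MMP14 is known as a collagenase of the invading cell and as the activator of pro-MMP2, a step in which TIMP2 acts as the bridge.

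Libraries held between 12400782 and 27599159 counts, and the 2-library set was the deeper one. Levels below are TMM-scaled CPM, that is counts relative to library size, and differences are log2 fold changes of treated over untreated tumors from edgeR's quasi-likelihood test with a term for the naming set, adjusted over 20423 genes. The labels do not tie tumors to animals, and p-values therefore rest on the spread between libraries, which may be partly technical. Markers of melanoma cells were abundant, with a summed level of 15430 to 18990 CPM in treated and 14020 to 18260 CPM in untreated tumors over 8 genes. Most of this sum was PMEL, at 9132 to 13110 CPM in treated and 8281 to 13440 CPM in untreated tumors. In bulk tumors, a change in the number of cells of a type and a change in RNA per cell cannot be told apart.

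The 6 enzymes shown, MMP1, MMP2, MMP8, MMP14, MMP15 and MMP17, share a coding stretch for the catalytic zinc site, in which 3 histidines hold the metal. MMP16 was not analysed here for this stretch. The stretch is printed because it sets these 6 proteases apart from the TIMP genes on the reference sequence, and the 3 histidine codons are in capitals. The stretch is 33 bases long, read 5′ to 3′ on the coding strand from the longest complete coding sequence of each gene in GENCODE release 29 (GRCh38).
MMP17: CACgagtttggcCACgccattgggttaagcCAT
MMP2: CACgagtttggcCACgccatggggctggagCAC
MMP14: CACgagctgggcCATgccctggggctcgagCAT
MMP15: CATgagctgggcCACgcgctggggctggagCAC
MMP1: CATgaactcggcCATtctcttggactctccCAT
MMP8: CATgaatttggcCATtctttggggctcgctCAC
Each stretch lies within 1 exon, exon 5 of 10 in MMP1, MMP8, MMP14, MMP15 and MMP17 and exon 8 of 13 in MMP2. Against MMP14, MMP15 matched at 28 of the 33 bases, MMP2 at 27, and MMP17, MMP1 and MMP8 at 23 each. The pattern was found 0 times in the coding sequences of TIMP1, TIMP2 and TIMP3. The sites lie at chr12:131841659-131841691 (MMP17, plus strand), chr16:55491827-55491859 (MMP2, plus), chr14:22843283-22843315 (MMP14, plus), chr16:58040563-58040595 (MMP15, plus), chr11:102795549-102795581 (MMP1, minus) and chr11:102718517-102718549 (MMP8, minus).

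Enough counts for a test were present for 8 of the 10 genes, and 1 of these 8, MMP17, was called after anle138b. It rose, 0 fell and 7 did not pass. Over all genes tested, 1.05% were called in either direction and 0.656% were called as raised. The 8 genes had a median log2 fold change of 0.23, against -0.01 over all genes tested, with 5 estimates above 0 and 3 below. At an unadjusted p below 0.05 there were 4 of the 8, MMP17, MMP2, TIMP3 and MMP15, against 8.49% of all genes. Because the genes were chosen with earlier results of these data known, these shares and medians describe the list and do not test it.

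**Figure D1:**
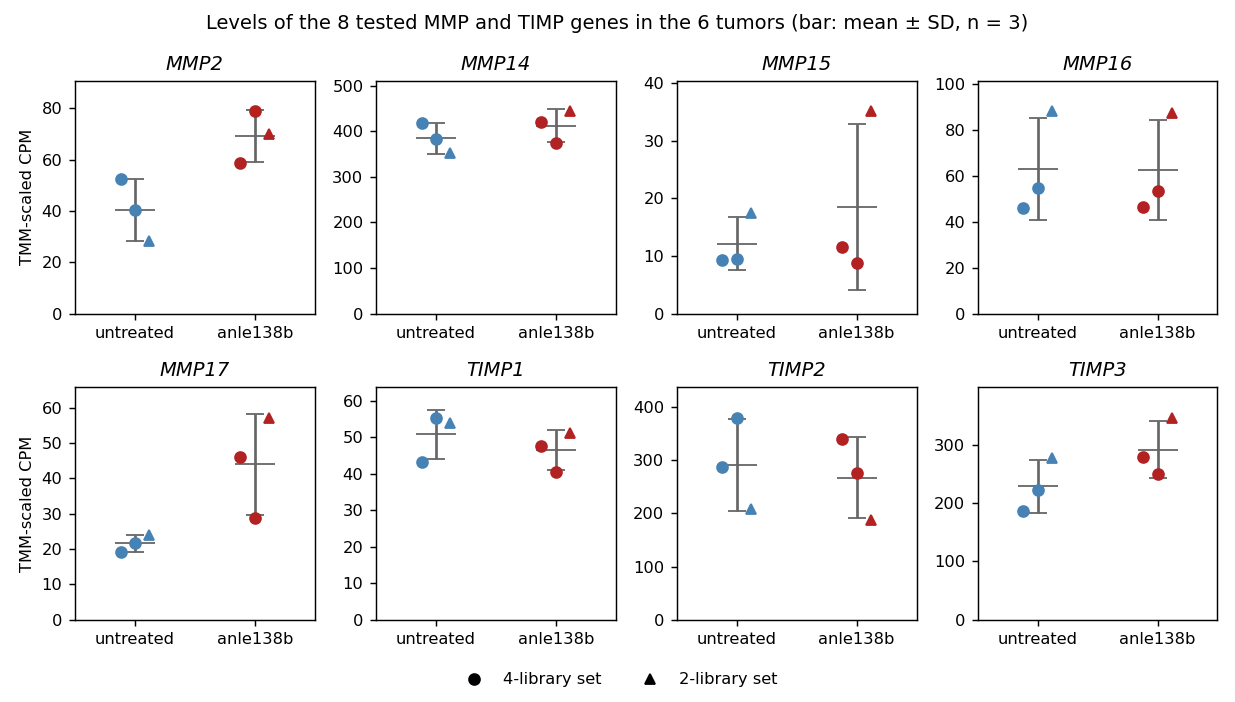
Levels of the 8 tested genes in TMM-scaled CPM (vertical axes, each from 0) in untreated and anle138b tumors; points are tumors, circles the 4-library set and triangles the 2-library set, and bars the mean ± SD (n = 3). For MMP17 and MMP2 the 3 treated tumors sit above the 3 untreated tumors, at 28.9 to 57.2 against 19.1 to 23.9 CPM for MMP17.

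MMP17, also called MT4-MMP, is an enzyme held at the cell surface by a glycolipid (GPI) anchor rather than a transmembrane helix. Its gene (ENSG00000198598) lies on chromosome 12 at 131828393 to 131851783 (GRCh38, plus strand). Treated tumors held 601, 362 and 1617 of its reads as counts, and untreated tumors 313, 295 and 564. Scaled for depth, these were 46.0, 28.9 and 57.2 CPM in treated against 19.1, 21.9 and 23.9 CPM in untreated tumors. The groups did not overlap, the untreated tumors lay close together, and anle138b replicate 2 was the lowest of the treated tumors. The mean was 44.0 ± 14.2 CPM against 21.6 ± 2.44 CPM (SD, n = 3), a log2 fold change of 1.01 ± 0.17 (SE; 95% interval 0.62 to 1.40; adjusted p = 0.0278, edgeR quasi-likelihood test). The difference was 0.83 on the log2 CPM scale in the 4-library set and 1.25 in the 2-library set, the latter from single libraries. The call was lost without anle138b replicate 1 or 3 (adjusted p = 0.143 and 0.182), without untreated replicate 1 or 3 (adjusted p = 0.122 and 0.103), with only the 4-library set fitted (adjusted p = 0.144) and without the set term (adjusted p = 0.423, edgeR), while the log2 fold change stayed between 0.84 and 1.21 in all of these edgeR fits and in those without the other 2 libraries.

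Groups that did not overlap were seen for 2 of the 8 genes, MMP17 and MMP2, both with treated above untreated. The same was seen, in that direction, for 4.03% of all genes tested. Within each naming set taken separately, TIMP3 joined them, giving 3 of 8 genes, against 9.52% of all genes. These shares too are descriptions of a list chosen with earlier results known.

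MMP2, or gelatinase A, is a secreted enzyme that cuts denatured collagen and type IV collagen of basement membranes. The gene (ENSG00000087245) is on chromosome 16 at 55389700 to 55506691 (plus strand). Its level was 58.6, 78.8 and 70.0 CPM after anle138b and 52.2, 40.3 and 28.2 CPM without it. All treated tumors were above all untreated tumors, though the gap between anle138b replicate 1 and untreated replicate 1 was small. The log2 fold change was 0.82 ± 0.18 (SE, n = 3 per group; 95% interval 0.41 to 1.22), short of the threshold (adjusted p = 0.0815, edgeR). The difference was 0.57 in the 4-library set and 1.30 between the single libraries of the 2-library set on the log2 CPM scale. The test of treatment by naming set did not call MMP2 (adjusted p = 0.747, edgeR). MMP2 passed in the DESeq2 Wald test (adjusted p = 0.00173), in edgeR with no low-count filter (adjusted p = 1.04e-08), and in edgeR without anle138b replicate 1 or 2 (adjusted p = 0.0442 and 0.0356). With no filter its estimate was still 0.82. That fit called 754 of 46484 genes, and other p-values fell too, as for MMP17 (adjusted p = 3.95e-11, edgeR) at an unchanged 1.01. Without replicate 3 of either group the log2 fold change of MMP2 was 0.57 and 0.58 (adjusted p = 0.364 and 0.308).

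Stromal fibroblasts are a known source of MMP2, so their markers were read beside it. The summed level of 9 fibroblast and pericyte genes was 260 to 291 CPM in treated and 171 to 203 CPM in untreated tumors, without overlap. Lumican (LUM), which encodes a small proteoglycan, made up most of this sum and was the 1 called gene of the 9, with a log2 fold change of 0.70 ± 0.12 (adjusted p = 0.0249, edgeR), which did not hold once replicate 1 or replicate 3 of a group was left out (adjusted p up to 0.174), nor with only the 4-library set fitted (adjusted p = 0.117). Without LUM the sum was 58.8 to 68.1 CPM in treated and 48.8 to 62.5 CPM in untreated tumors, and the groups overlapped. After LUM, FAP and COL6A3 had the smallest p, with log2 fold changes of 0.37 and -0.33 that did not pass (adjusted p = 0.577 and 0.704, edgeR). FAP had 344 to 1001 counts per library. The receptors PDGFRA and PDGFRB had 14 to 59 and 12 to 55 counts, with log2 fold changes of 0.30 and 0.19. Of the 9 genes, 4 had a log2 fold change above 0 and 5 below. None of the fibroblast markers was at 0 in all libraries. How reads of the host were treated was not given, and the part of host cells in the MMP2 difference was not tested.

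MMP14, or MT1-MMP, the transmembrane collagenase that activates pro-MMP2, was the most abundant member. Its gene (ENSG00000157227) lies on chromosome 14 at 22836557 to 22849027 (plus strand). It stood at 420, 374 and 443 CPM after anle138b and at 417, 383 and 351 CPM without it. The groups overlapped, and the spread between tumors was small beside the level. The log2 fold change was 0.10 ± 0.11 (SE; 95% interval -0.15 to 0.36; adjusted p = 0.936, edgeR), and its sign turned in the 4-library set alone (-0.01).

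MMP15, or MT2-MMP, is a transmembrane relative of MMP14 encoded on chromosome 16 at 58025566 to 58046901. It had 11.6, 8.87 and 35.1 CPM after anle138b and 9.38, 9.55 and 17.4 CPM without it. The treated tumor of the 2-library set stood highest and its untreated partner second, while the 4 other tumors lay close together with their groups overlapping. The log2 fold change of 0.46 ± 0.20 did not pass (adjusted p = 0.559, edgeR), and it was 0.12 without anle138b replicate 3 and also 0.12 without untreated replicate 3. The difference on the log2 CPM scale was 0.10 in the 4-library set and 1.003 in the 2-library set. The test of treatment by naming set did not call MMP15 either (adjusted p = 0.686, edgeR).

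MMP16, or MT3-MMP, the third transmembrane enzyme measured, lies on chromosome 8 at 88032009 to 88328025. It stood at 46.3, 53.6 and 87.2 CPM in treated and 45.8, 54.7 and 88.0 CPM in untreated tumors. The treated and untreated tumors covered nearly the same range. Its log2 fold change was -0.01 ± 0.11 (95% interval -0.25 to 0.23; adjusted p = 0.994, edgeR), with a sign that turned under DESeq2 size factors (0.0059).

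The collagenases MMP1 and MMP8 had at most 3 counts in any library. MMP1, the interstitial collagenase that cuts fibrillar collagen, had 0, 0 and 0 counts in treated and 0, 3 and 1 in untreated tumors. MMP8, the collagenase stored by neutrophils, had 0, 2 and 2 counts in treated and 1, 0 and 0 in untreated tumors. At this depth 3 counts stand for 0.109 to 0.242 CPM, for counting error only, so no fold change is given. Neutrophil and myeloid markers summed to 30.5 to 48.2 CPM in treated and 23.2 to 42.3 CPM in untreated tumors over 12 genes. LYZ and CSF1R had the most counts of these, at 130 to 836 and 89 to 339 per library. Of the genes that mark neutrophils, FCGR3B, S100A9 and ELANE had 0 counts in all 6 libraries. CSF3R had 4 to 12 counts per library, MPO 0 to 4 and S100A8 0 to 1. How host reads were treated was not given, and the presence of neutrophils was not tested.

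The inhibitors are small secreted proteins. TIMP3 differs from the others in that it stays bound to the matrix. It lies on chromosome 22 at 32801701 to 32863043 (plus strand) and had 279, 251 and 347 CPM after anle138b and 186, 222 and 277 CPM without it. Treated tumors were higher within each naming set, but the groups overlapped when the sets were joined. The log2 fold change was 0.36 ± 0.11 (SE; 95% interval 0.12 to 0.59) and did not pass (adjusted p = 0.23, edgeR). The difference was 0.37 in the 4-library set and 0.32 in the 2-library set on the log2 CPM scale. With no low-count filter TIMP3 passed (adjusted p = 0.034, edgeR) at an unchanged 0.36, in the fit that called 754 genes. The gene lies within SYN3, on the opposite strand, and the annotated exons of the genes share 0 bases.

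TIMP1, a broad inhibitor on chromosome X at 47582313 to 47586789, had 47.7, 40.5 and 51.1 CPM in treated and 43.1, 55.4 and 53.9 CPM in untreated tumors. TIMP2, the inhibitor that also bridges MMP14 and pro-MMP2, is encoded on chromosome 17 at 78852977 to 78925387 (minus strand) and had 338, 275 and 187 CPM in treated and 286, 380 and 208 CPM in untreated tumors. Both genes overlapped between the groups. Each had a log2 fold change of -0.13, with 95% intervals of -0.40 to 0.15 for TIMP1 and -0.42 to 0.16 for TIMP2 (adjusted p = 0.911 and 0.92, edgeR). With 1 library left out the log2 fold change ran from -0.194 without anle138b replicate 1 to -0.015 without untreated replicate 2 for TIMP1, and from -0.227 to -0.0087 without the same libraries for TIMP2. The TIMP2 exons share 367 bases (6.52% of the union) with an antisense RNA that had 0 counts and 198 bases (3.52%) with CEP295NL on the same strand.

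**Figure D2:**
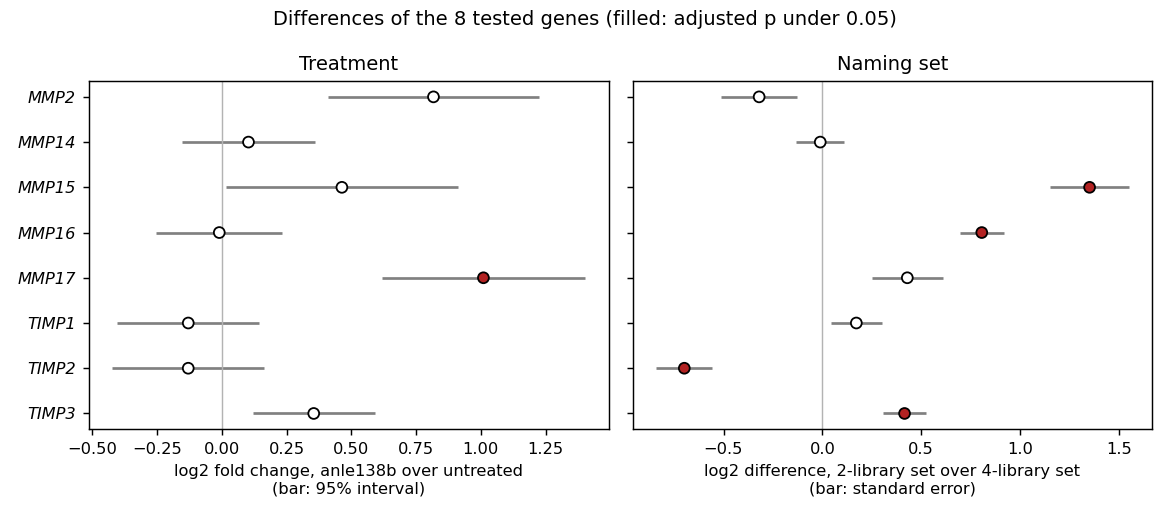
Left, log2 fold change of anle138b over untreated tumors with its 95% interval; right, log2 difference of the 2-library set over the 4-library set with its standard error; filled points have an adjusted p below 0.05. In the treatment panel MMP17 is filled at 1.01 and MMP2 is open at 0.82, while 4 genes are filled for the naming set, from -0.70 for TIMP2 to 1.35 for MMP15.

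The naming sets were compared in the same fit. Of the 8 genes, 4 were called for the set term, 3 higher and 1 lower in the 2-library set. Over all genes 15.5% were called, 8.32% as higher and 7.14% as lower in that set. MMP15 was higher there by 1.35 ± 0.20 on the log2 scale (adjusted p = 0.00234, edgeR), with means of 26.2 against 9.86 CPM. MMP16 was higher by 0.81 ± 0.11 (adjusted p = 0.0016), at 87.6 against 50.1 CPM, and TIMP3 by 0.42 ± 0.11 (adjusted p = 0.0335), at 312 against 234 CPM. TIMP2 was lower by -0.70 ± 0.14 (adjusted p = 0.0123), at 197 against 320 CPM. MMP17 and TIMP1 had differences of 0.43 and 0.17 that did not pass (adjusted p = 0.132 and 0.391). That of MMP17 was called with library size alone (0.51, adjusted p = 0.0477) and with no low-count filter (0.45, adjusted p = 0.0112, edgeR). MMP2 had one of -0.32 (adjusted p = 0.285) and MMP14 one of -0.01 (adjusted p = 0.964). The interaction of treatment with naming set was called in 0 of the 8 (edgeR), though MMP2 and MMP15 had an unadjusted p below 0.05, and likewise in 0 by DESeq2 and by limma. Over all genes, edgeR called 0% for that interaction, while 6.59% lay below 0.05 before adjustment.

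Levels can be set side by side between genes only per length, as TMM-scaled CPM per kb of annotated exon. On that scale MMP14 was highest at 89.2 ± 7.70 (SD, n = 6), above every other member in all 6 libraries. TIMP3 followed at 56.6 ± 11.9, TIMP2 at 49.5 ± 13.1 and TIMP1 at 31.6 ± 3.86. TIMP3 and TIMP2 lay within their spread of each other, with TIMP3 above in 4 of 6 libraries. Below a gap came MMP2 at 11.1 ± 3.78, MMP17 at 8.20 ± 3.82, MMP16 at 5.17 ± 1.63 and MMP15 at 3.47 ± 2.30. Each neighbouring pair among these 4 genes overlapped within 1 SD, and MMP2 exceeded MMP17 in 4 of 6 libraries. MMP1 and MMP8 were at 0.0224 and 0.0141, too few counts to order.

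**Figure D3:**
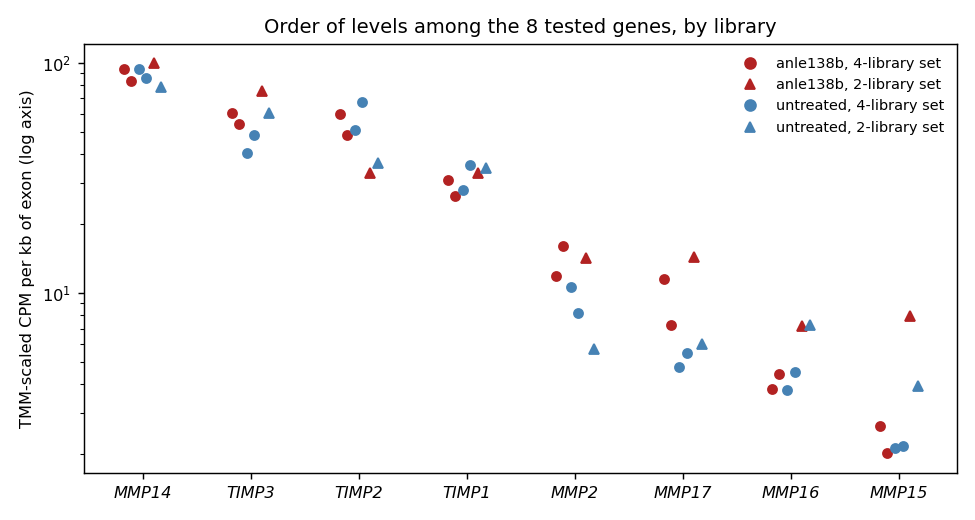
Level of each of the 8 tested genes in TMM-scaled CPM per kb of exon (logarithmic vertical axis), 1 point per tumor, coloured by treatment and shaped by naming set. MMP14 and the 3 TIMP genes lie above 26 in every tumor, and the 4 other genes lie at 16.0 or lower.

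The ratio of an enzyme to its inhibitor within a library does not depend on the scaling of that library. The log2 ratio of MMP2 to TIMP2 was -2.53, -1.80 and -1.41 after anle138b and -2.45, -3.23 and -2.87 without it. The groups overlapped by anle138b replicate 1 and untreated replicate 1. Their means were -1.91 ± 0.56 and -2.85 ± 0.39 (SD, n = 3), a difference of 0.94 (exact permutation test, two-sided, p = 0.2, and 0.3 adjusted over 3 ratios; 3 against 3 cannot give less than 0.10). For MMP14 to TIMP2 the means were 0.67 ± 0.51 and 0.44 ± 0.38, with a difference of 0.23 (exact permutation p = 0.7, two-sided, and 0.5 within naming sets). This difference turned to -0.06 without anle138b replicate 3. The ratio of MMP1 to TIMP1 was computed as well, but MMP1 is at the floor, so its value is set by the prior count and is not read.

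**Figure D4:**
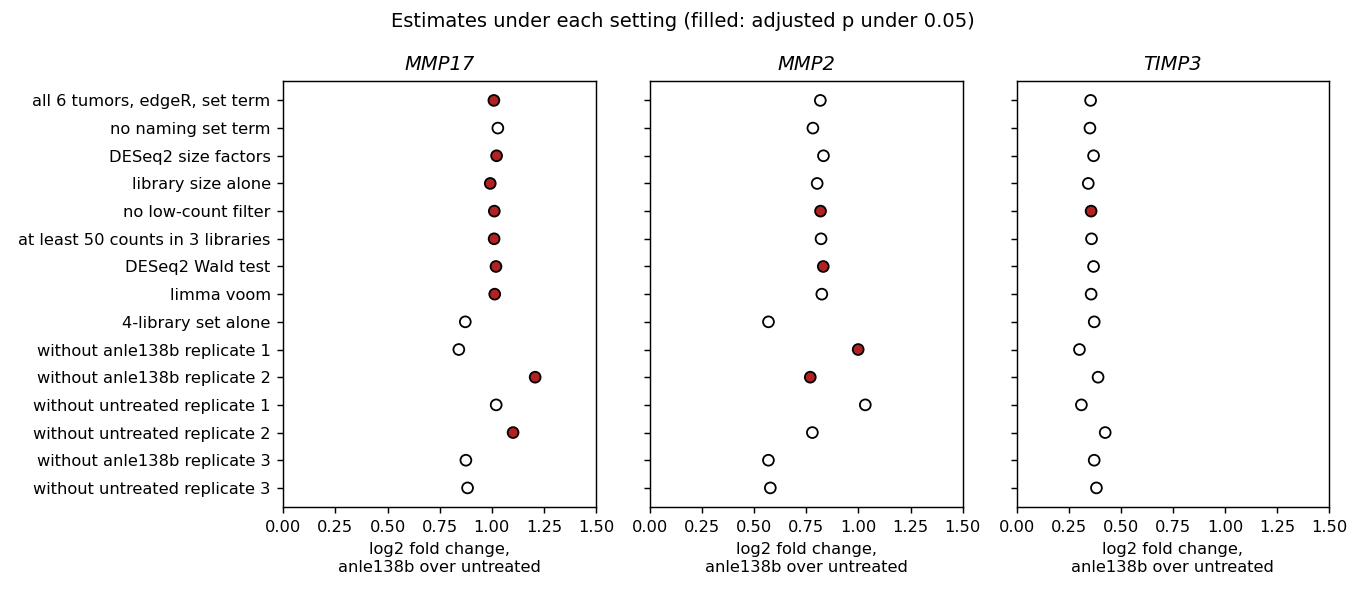
Log2 fold change of anle138b over untreated tumors (horizontal axis) for MMP17, MMP2 and TIMP3 under the main setting and 14 alternatives (vertical axis); filled points have an adjusted p below 0.05. MMP17 stays between 0.84 and 1.21 but is open in 6 of the 14, and MMP2 is filled in 4 of the 14.

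Among the members, the levels of TIMP1 and TIMP2 varied together most closely once each naming set was centred (Pearson r = 0.979 over 6 libraries), followed by MMP17 with TIMP3 (r = 0.925) and MMP14 with MMP15 (r = 0.922). These are descriptions over libraries that also share depth and set. The genes most like MMP17 in this measure, of 14033 compared, were SHISA4, NOP16 and XPO5 (r = 0.9988, 0.9984 and 0.9977), with log2 fold changes of 0.23, 0.22 and 0.18 that did not pass. Those most like MMP14 were LYSMD4, SLC25A15 and GNB4 (r = 0.9981, 0.9953 and 0.9951). Of the genes compared, 186 had an r over 0.95 with MMP17 and 90 with MMP14.

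Promoter windows from RefSeq (GRCh38.p14), 250 bases before to 50 after the annotated start, were found for 5 of the 10 members, MMP8, MMP14, MMP15, TIMP1 and TIMP3. A pair whose levels varied together, MMP14 (chr14:22836335-22836634, plus strand) and MMP15 (chr16:58025504-58025803, plus strand), is printed beside MMP8 (chr11:102724905-102725204, minus strand), which was at the floor. Capitals mark a GC box (GGGCGG) or a TATA box (TATAAA), searched on both strands.
MMP14: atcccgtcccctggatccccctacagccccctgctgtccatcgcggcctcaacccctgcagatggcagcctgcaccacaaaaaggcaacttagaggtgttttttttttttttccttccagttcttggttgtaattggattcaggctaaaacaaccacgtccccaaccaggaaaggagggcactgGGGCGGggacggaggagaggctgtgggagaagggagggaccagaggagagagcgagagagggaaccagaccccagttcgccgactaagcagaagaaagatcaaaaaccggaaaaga
MMP15: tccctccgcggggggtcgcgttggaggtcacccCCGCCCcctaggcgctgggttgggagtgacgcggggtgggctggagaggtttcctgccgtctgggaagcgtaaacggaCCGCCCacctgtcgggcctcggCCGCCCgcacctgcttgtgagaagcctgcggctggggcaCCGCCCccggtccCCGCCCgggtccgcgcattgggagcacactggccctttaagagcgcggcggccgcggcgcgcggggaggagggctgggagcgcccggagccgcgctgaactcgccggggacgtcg
MMP8: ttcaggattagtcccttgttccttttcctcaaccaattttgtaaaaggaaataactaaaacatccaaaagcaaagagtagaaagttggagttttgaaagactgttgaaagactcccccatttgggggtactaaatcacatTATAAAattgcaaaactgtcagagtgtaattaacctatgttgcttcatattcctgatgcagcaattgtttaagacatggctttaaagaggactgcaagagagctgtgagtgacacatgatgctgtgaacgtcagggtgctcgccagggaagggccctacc
The GC box occurred 1 time in MMP14 and 5 times in MMP15, and in 45% of 35116 promoter windows of this length. It was in 4 of the 5 member windows, as TIMP1 had 2 and TIMP3 had 5, so it is not particular to the printed pair. The TATA box letters occurred 1 time in MMP8 and in 11.5% of all windows. The AP-1 element TGANTCA was in 0 of the 5 windows and in 7.71% of all. GC content was 55% in MMP14, 75.3% in MMP15 and 40.7% in MMP8, against a median of 58.7%. A match of letters is a description of the window and not a binding site.

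Of 16 other MMP genes, 5 passed the filter and 0 were called by edgeR, and 0 had an unadjusted p below 0.05. Their median log2 fold change was 0.05. MMP3, MMP19 and MMP21 had the smallest p, with log2 fold changes of -0.50, 0.40 and 0.09. MMP7, MMP20 and MMP26 had 0 counts in all libraries, and the gelatinase MMP9 had 0 to 8 counts. Of 6 further inhibitors, 4 were tested and 1 rose, A2M, the protease-trapping alpha-2-macroglobulin, from 110 ± 54.4 to 168 ± 88.3 CPM (log2 fold change 0.59 ± 0.09, adjusted p = 0.0163, edgeR). This call was lost without anle138b replicate 1 or 3 or untreated replicate 1 or 2 (adjusted p from 0.0607 to 0.0876), and with only the 4-library set fitted (adjusted p = 0.0597). RECK, a membrane-anchored inhibitor, had a log2 fold change of 0.12 and TFPI2, a secreted protease inhibitor, one of -0.61, neither called.

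In the list of activators and the plasminogen system, 0 of 11 tested genes were called by edgeR, with 0 at an unadjusted p below 0.05 and a median of -0.04. Its smallest p values belonged to S100A10, PLAT and SERPINF2, with log2 fold changes of 0.25, -0.17 and -0.56. Of 15 surface partners, ITGB3, the integrin beta chain of a vitronectin receptor, was the 1 called. It rose from 69.5 ± 5.56 to 106 ± 8.76 CPM (log2 fold change 0.61 ± 0.09, adjusted p = 0.0126, edgeR), which was not kept when replicate 1 of a group, untreated replicate 2 or anle138b replicate 3 was left out (adjusted p from 0.0504 to 0.0772) or when only the 4-library set was fitted (adjusted p = 0.0645). THBS1 and CLDN1 did not pass, with 0.47 and -0.43.

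Of 18 tested ADAM and ADAMTS genes, ADAMTS9, a secreted proteoglycan-cutting metalloprotease, rose from 68.4 ± 5.87 to 126 ± 15.4 CPM (log2 fold change 0.88 ± 0.12, adjusted p = 0.00798, edgeR), and 0 fell. ADAM19 and ADAM12 had log2 fold changes of -0.59 and 0.76 that did not pass (adjusted p = 0.0889 and 0.245). Among 19 matrix substrates 1 rose, FN1, the gene of fibronectin (log2 fold change 1.62 ± 0.15, adjusted p = 0.001), and 0 fell. The list's median was 0.10, with TNC and LAMC1 at 0.31 and 0.32 (adjusted p = 0.406 and 0.409). Of 17 transcription factors known to act on MMP promoters or in invasion, SNAI2 and ETS2 rose, by 1.40 ± 0.13 and 0.74 ± 0.11 (adjusted p = 0.00087 and 0.012, edgeR), and FOSL2 did not pass at 0.27. The ETS2 call was lost without anle138b replicate 1 or 3 (adjusted p = 0.0665 and 0.0875) and with only the 4-library set fitted (adjusted p = 0.0682). Without the set term the calls of A2M, ITGB3, ADAMTS9, FN1, SNAI2, ETS2 and LUM were all lost (edgeR adjusted p from 0.0593 for FN1 to 1 for A2M).

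Markers of further cell types had 0 calls by edgeR. Endothelial genes summed to 31.9 to 32.6 CPM in treated and 35.9 to 42.6 CPM in untreated tumors, without overlap. A large part of this sum was TIE1, with 22.33, 21.17 and 12.45 CPM in treated and 31.12, 29.18 and 19.05 CPM in untreated tumors. The sum without TIE1 was not computed. TIE1, VWF and KDR had log2 fold changes of -0.52, -0.60 and 0.66. Of the 6 tested genes, 3 estimates were above 0 and 3 below, and 3 had an unadjusted p below 0.05. Muscle genes summed to 32.1, 72.6 and 17.4 CPM in treated and 42.0, 31.2 and 18.4 CPM in untreated tumors. Anle138b replicate 2 stood apart, with 131 counts of CKM, the muscle creatine kinase, against 1 to 11 in the other 5 libraries, and 77 counts of TNNT3, a fast-muscle troponin, against 0 to 5. MYL1 had 0 counts in all libraries, and MB had 2 in anle138b replicate 2 against 5 to 13 in the others. That replicate also had the highest MMP2 level and the lowest treated MMP17 level. Without it the log2 fold change was 0.77 for MMP2 (adjusted p = 0.0356) and 1.21 for MMP17 (adjusted p = 2.4e-05, edgeR). Keratinocyte genes summed to 16.7 to 21.9 and 18.7 to 23.5 CPM, most of it from KRT10. In melanoma markers 4 of 8 genes had an unadjusted p below 0.05, among them TYRP1, S100B and DCT with log2 fold changes of 1.42, -0.46 and 0.42. The part of endothelial cells, muscle and keratinocytes in the differences of MMP17 and MMP2 was not tested.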

How the data were processed

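Raw counts per gene were deposited by the authors for 6 tumors, 1 file each. Libraries were made from TRIzol RNA with the TruSeq RNA kit v2, per the labels, a kit that does not mark strand. Per the submitters' processing notes, reads were counted with featureCounts 1.5.0-p1 after STAR 2.5.2a and bcl2fastq 2.17.1.14 (build hg38). The sources used here do not give the annotation release or the treatment of multiply mapped and host reads, so reads shared between related genes may be lost or split.

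Positions and exon lengths came from GENCODE release 29. The test was the quasi-likelihood F test of edgeR 4.0.16 (R 4.3.3) after filterByExpr (minimum count 10 and total 15, leaving 20423 genes) and TMM scaling, with terms for treatment and set, 3 residual degrees of freedom, and p-values adjusted by Benjamini-Hochberg (threshold 0.05). Log2 CPM used a prior count of 2. Alternatives were other scalings and filters, DESeq2 1.42.0, limma 3.58.1, the 4-library set alone and each library left out. Replicates differed beyond sampling noise, with a chi-square per degree of freedom of 8.97 and 9.16 within the 4-library set and 21.5 to 49.7 between the sets. All 10 genes are named, and of each other list the called genes and up to 3 with the smallest p, except in the myeloid and muscle lists. Some further genes, among them the myeloid and muscle markers, were named for their counts and not by this rule. Members and lists were chosen with earlier results of these data known. Replicate numbers follow listing order.

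Counts were simulated for this comparison (19966 genes) with the dispersions fitted to these data. Changes were planted in 50 genes per size, all with a mean of at least 2 CPM. The fit found 16%, 88%, 100% and 100% of true log2 changes of size 0.5, 1, 2 and 3, and 8.43% of its calls were false.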

Additional observations from a re-analysis of the deposited data

How the results depend on the processing

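The 1 call among the 8 tested genes became 0 without the set term and 0 in the 4-library set alone, 3 of 10 genes without a low-count filter, and 2 of 8 with DESeq2. With 1 library left out it ranged from 0 to 2. Over all genes the 215 calls became 9 without the set term, 754 without a low-count filter, 412 with DESeq2 and 92 in the 4-library set alone, and 89 to 392 with 1 library left out. The cause was not tested, except that the 4-library set has fewer tumors. Calls for the naming set were 4 or 5 under each of 6 alternatives, and those for its interaction with treatment 0.

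The log2 fold change of MMP14 turned in the 4-library set alone (-0.0145) and without anle138b or untreated replicate 3 (-0.0128 and -0.0046), and reached 0.2015 without untreated replicate 1. That of MMP16 turned with DESeq2 size factors and the DESeq2 test (0.0059 in both), and ranged from -0.071 to 0.0628 with 1 library left out, turning without anle138b replicate 1 (0.0423), untreated replicate 2 and untreated replicate 3 (0.0063). The set difference of MMP14 turned with library size alone (0.0642), no filter (0.011), the filter of 50 counts in 3 libraries (0.0381), and DESeq2 size factors and test (9.98e-05 and 9.94e-05). None of these was called. The MMP14 to TIMP2 log2 ratio ranged from -0.0628 to 0.406 with 1 library left out. No paired analysis was possible because the replicate numbers follow listing order and pair no tumors. In the shallowest library 3 counts stand for 0.242 CPM, which limits what can be said of MMP1 and MMP8.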
